A study of Mus musculus with 30 samples.

Results

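The infarcted mouse heart was examined for 10 genes of tumour necrosis factor (TNF) signalling, chosen by name from the 43629 genes counted: the ligands Tnf, Tnfsf12 and Tnfsf10, the receptors Tnfrsf1a, Tnfrsf1b, Tnfrsf12a and Tnfrsf11a, the decoy receptors Tnfrsf11b and Tnfrsf23, and the intracellular inhibitor Tnfaip3. The choice was made with earlier results of these data known. All 10 genes were counted in all 30 libraries. The hearts came from C57BL/6J mice of wild type genotype. In the MI groups (myocardial infarction) a coronary artery was ligated through an opened chest, and in the Sham groups the operation was done without the ligation. The 6 groups were sham day 2, MI day 2, sham day 4, MI day 4, sham day 7 and MI day 7, counted in days after the operation, with 5 libraries each. All groups thus shared anaesthesia, opening of the chest and removal of the pericardium. The labels do not say which piece of the heart was taken or how large the infarcts were, and name the replicates only as separate samples, and p-values rest on the spread among them, which may be technical.

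TNF superfamily ligands are made as membrane proteins, act as trimers and cluster trimeric receptors on the cell surface. Receptors with a death domain, such as TNFR1 (encoded by Tnfrsf1a), assemble complexes that either activate the transcription factor NF-kB or lead to cell death, while receptors without one, such as TNFR2 (Tnfrsf1b), Fn14 (Tnfrsf12a) and RANK (Tnfrsf11a), recruit TRAF adaptors. In the infarcted heart TNF is known as a product of infiltrating and resident macrophages and of injured myocardium, and Fn14, the receptor of TWEAK (Tnfsf12), as a receptor that is scarce in healthy tissue and induced by injury.

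The promoters of 3 genes are shown because they belong to the ligand that names the family, to the receptor with the highest level per length in MI libraries, and to the feedback inhibitor whose promoter alone held any match to the motifs searched. The RefSeq promoter table (build GRCm38.p6) had an entry for 8 of the 10 genes, all but Tnfsf12 and Tnfrsf11b. The 250 bases before each start site were searched on both strands for the NF-kB consensus, for the AP-1 motif TGANTCA and for the CArG box bound by serum response factor. Only Tnfaip3 had matches among the 8 genes, and they are in capitals: the AP-1 motif at 136 to 130 bases before its first start site and the NF-kB consensus at 125 to 116 and at 12 to 3 bases before it, with no overlap between them. The second start site of Tnfaip3 had no match, and none of the 8 genes had a CArG box. Of the 32851 promoter windows of the same length in that table, 3.9% held the NF-kB consensus, 6.75% the AP-1 motif and 1.47% a CArG box. A match is a description of letters and does not show a bound site, and the missing matches say nothing about the factors. The sequences run 5′ to 3′ on the minus strand of chr17:35202008-35202257 (Tnf), chr17:23677469-23677699 (Tnfrsf12a) and chr10:19015411-19015547 (Tnfaip3), each being the stretch of the window outside annotated exons. In the GENCODE annotation the Tnfaip3 gene starts at 19015657, so that its stretch lies inside the gene there, after that start.
Tnf: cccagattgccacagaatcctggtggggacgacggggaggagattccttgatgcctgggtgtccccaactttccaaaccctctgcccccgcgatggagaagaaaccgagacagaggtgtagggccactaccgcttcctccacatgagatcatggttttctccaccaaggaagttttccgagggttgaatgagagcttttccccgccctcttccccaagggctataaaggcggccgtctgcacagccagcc
Tnfrsf12a: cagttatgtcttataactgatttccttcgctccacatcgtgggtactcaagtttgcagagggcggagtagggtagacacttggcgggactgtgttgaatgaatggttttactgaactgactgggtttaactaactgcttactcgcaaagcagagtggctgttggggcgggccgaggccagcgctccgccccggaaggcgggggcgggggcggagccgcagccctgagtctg
Tnfaip3: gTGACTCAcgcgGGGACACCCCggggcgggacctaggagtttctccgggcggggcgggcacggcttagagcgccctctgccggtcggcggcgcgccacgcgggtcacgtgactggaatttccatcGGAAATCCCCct

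Libraries held 7841930 to 14070017 counts and 18668 to 20905 detected genes, and values are given as CPM, counts divided by the library total and scaled alike in every library. The summed CPM of 5 cardiomyocyte genes ran from 28076 to 64078 over the libraries, so that the defining genes of heart muscle were abundant in each. In 6 libraries the sum of 4 lung genes (Sftpc, Scgb1a1, Sftpb and Sftpa1) was far above the rest: replicates 2 and 3 of sham day 4, replicates 1, 2 and 3 of sham day 7 and replicate 2 of MI day 7, with 176 to 2028 CPM. Replicates 3, 4 and 5 of MI day 7 held 29.8, 11.9 and 24.9 CPM and stay in where the 6 lung libraries are left out, and the other 21 libraries held at most 1.69 CPM. Replicate 4 of MI day 7 held fast skeletal muscle transcripts. These libraries stay in the main comparisons, and values without them are given where the result changes. In the sham libraries with lung transcripts the sum of 4 adipocyte genes (Adipoq, Ucp1, Plin1 and Cidec) was also high, 104 and 272 CPM at day 4 and 110 to 150 CPM at day 7. The other sham libraries of these days held 5.83 to 28.8 CPM. With MI at day 7, replicate 2 held 28.7 CPM and replicate 4 held 146 CPM. The number of the sequencing run in the library names is one for day 2 and another for days 4 and 7, so that for a difference between day 2 and a later day, day and run cannot be told apart.

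At day 2, 6 of the 9 genes tested were higher and 1 was lower in MI than in sham libraries (edgeR, adjusted p under 0.05), against 24.1% of all genes tested called higher and 22.2% called lower (46.3% in either direction). At day 4, 8 of 9 were higher and 1 lower, with 27.5% and 25.2% of all genes (52.7% in either direction). At day 7, 7 of 10 were higher and 0 lower, with 28.4% and 26.6% of all genes (55% in either direction). In that last count Tnfsf10 and Tnfsf12 missed the threshold, with adjusted p of 0.105 and 0.0905, and by DESeq2 the day 7 count was also 7. The median log2 fold change (MI over sham) of the genes tested was 0.89, 1.32 and 0.92 at days 2, 4 and 7, and over all genes it was -0.01, 0.01 and 0.01. Because these genes, and the lists below, were chosen with earlier results of these data known, their shares beside those of all genes are a description. Tnf did not pass the filter on low counts in the fits of days 2 and 4 and was compared by itself there. Where groups are said below not to overlap, the share of all genes for which this holds was not counted. In bulk RNA, a change in the number of cells of a type and a change of RNA per cell cannot be told apart.

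**Figure D1:**
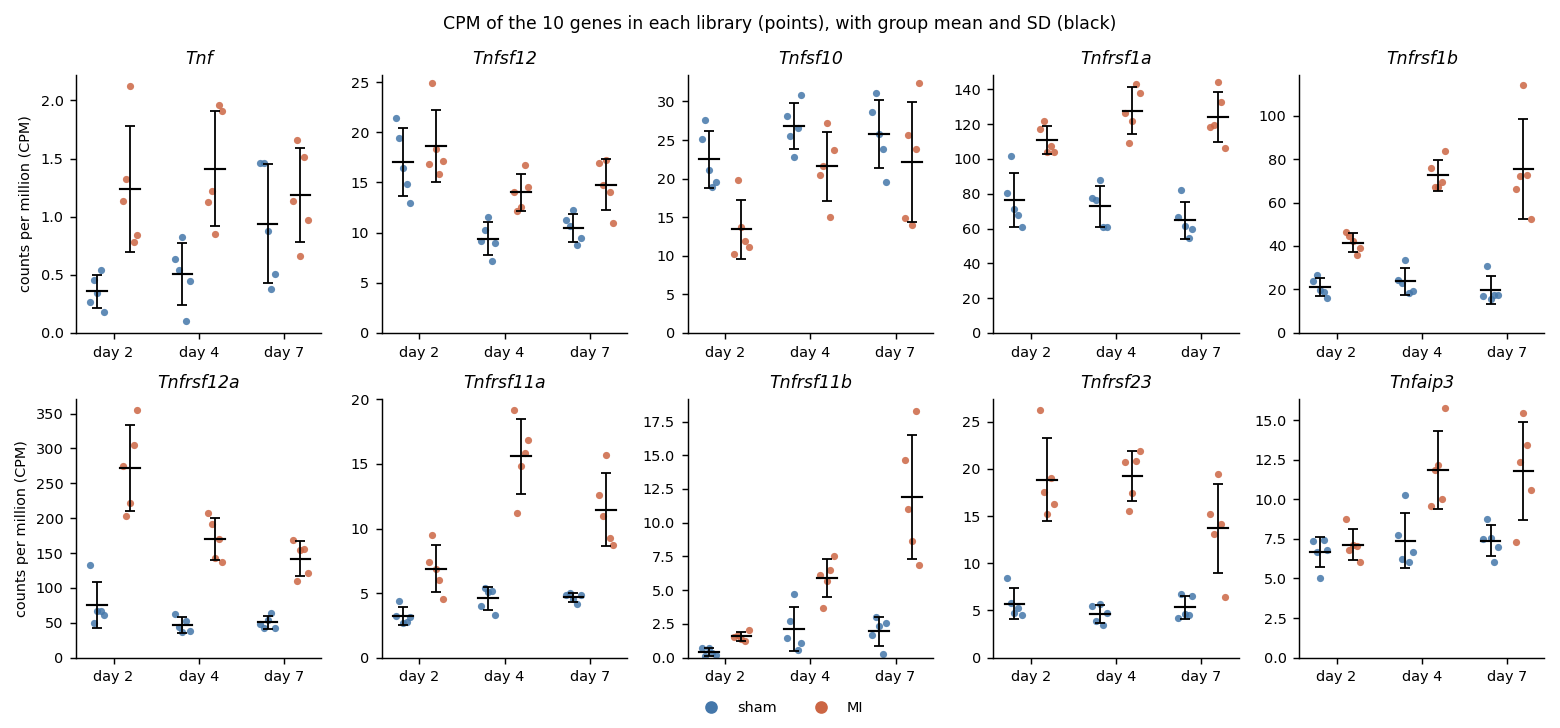
CPM (vertical axes, each from 0) of the 10 genes in sham (blue) and MI (orange) libraries at days 2, 4 and 7; each point is 1 library, and black lines give the mean and SD of the 5 libraries of a group. Tnfrsf12a, Tnfrsf1b, Tnfrsf1a and Tnfrsf11a show no overlap of MI and sham at any day on this scale, and the share of all genes without overlap was not counted. Tnfrsf12a sham day 2 replicate 1 stands alone at 133 CPM, and Tnf overlaps between the groups at day 7.

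Tnf encodes the founding ligand of the family. It was among the scarcest of these transcripts, with 1 to 22 counts per library. At day 2 the sham libraries read 0.266, 0.456, 0.342, 0.541 and 0.176 CPM, and the MI libraries 1.13, 1.33, 2.12, 0.782 and 0.838 CPM. The lowest MI value lay above the highest sham value. At day 4 the values were 0.636, 0.537, 0.824, 0.101 and 0.444 CPM in sham and 1.12, 1.22, 0.847, 1.96 and 1.91 CPM in MI libraries. These groups did not overlap, but the gap between 0.824 and 0.847 CPM was narrow, and with CPM scaled by TMM factors, as in the fits, sham reached 0.833 and MI began at 0.797, so that they overlapped. The means, 1.24 ± 0.54 against 0.356 ± 0.146 CPM at day 2 and 1.41 ± 0.50 against 0.508 ± 0.268 CPM at day 4 (SD, n = 5), had ratios of 3.48 and 2.78. Both had an exact permutation p of 0.00794, 2-sided, the smallest that 5 against 5 libraries allow (0.0119 adjusted over the 3 days). With TMM-scaled CPM the ratios were 3.25 and 2.48, with exact permutation p of 0.00794 and 0.0159. Where Tnf entered the test across genes, in the fit of all 30 libraries, its log2 fold change was 1.61 ± 0.41 SE at day 2 (edgeR adjusted p = 0.0022) and 1.29 ± 0.41 SE at day 4 (0.0085). With no filter in the fits of single days it was 1.63 (adjusted p = 0.0015) and 1.32 (0.0175), and at day 4 without the lung libraries 1.64 ± 0.51 SE (0.0146).

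At day 7 the sham libraries read 1.47, 1.46, 0.880, 0.377 and 0.510 CPM of Tnf and the MI libraries 1.14, 1.66, 0.660, 1.51 and 0.971 CPM, so that the groups overlapped over most of their range. The means were 0.938 ± 0.512 and 1.19 ± 0.41 CPM (SD, n = 5; exact permutation p = 0.413), and in that day's fit across genes the log2 value was 0.10 ± 0.39 SE, with an adjusted p of 0.837 by edgeR. The 3 sham libraries with the highest Tnf were the 3 with lung transcripts, and their lung genes summed to between 237 and 529 CPM. Their adipocyte genes summed to 110 to 150 CPM, against 27.5 and 28.8 CPM in the other 2 sham libraries. Without the lung libraries the day 7 means were 1.07 ± 0.36 (n = 4) against 0.443 ± 0.094 CPM (n = 2), a ratio of 2.41. The exact permutation p was 0.133, and 4 against 2 libraries cannot reach 0.05. At day 4 the ratio without them was 3.59 (exact permutation p = 0.0357). The part of lung or adipocyte transcripts in the day 7 values was not tested further.

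**Figure D2:**
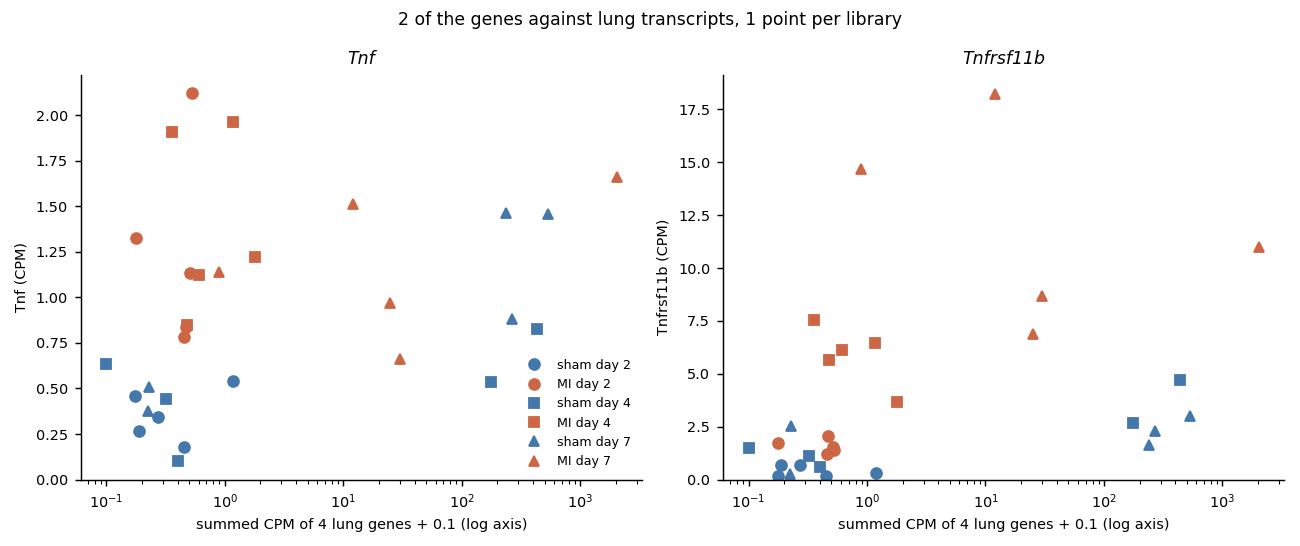
Tnf (left) and Tnfrsf11b (right) in CPM against the summed CPM of 4 lung genes plus 0.1 on a log axis, 1 point per library, blue for sham and orange for MI, with circles, squares and triangles for days 2, 4 and 7. The 3 sham day 7 libraries with lung sums of 237 to 529 CPM read 0.880 to 1.47 CPM of Tnf, and the other 2 read 0.377 and 0.510 CPM.

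Tnfsf12 encodes TWEAK, the ligand of Fn14. Its 5 sham libraries read 13.0 to 21.4 CPM at day 2 and its MI libraries 15.8 to 24.9 CPM, with overlapping groups and a log2 fold change of 0.04 ± 0.14 SE (adjusted p = 0.848). At day 4 the sham libraries read 9.11, 10.2, 11.5, 7.14 and 8.99 CPM and the MI libraries 14.1, 12.1, 12.5, 16.8 and 14.6 CPM. The groups did not overlap, with TMM-scaled CPM only barely (sham up to 11.67 and MI from 11.68), and Tnfsf12 rose 1.32-fold (log2 0.40 ± 0.13 SE, edgeR adjusted p = 0.0195). That call ended without sham replicate 4 (log2 0.33, adjusted p = 0.0560) or MI replicate 4 (log2 0.33, 0.0545). At day 7 the mean was 10.5 ± 1.4 CPM in sham and 14.8 ± 2.5 CPM with MI (SD, n = 5), with an adjusted p of 0.0905. Of the 1515 exon bases of Tnfsf12, 731 (48.3%) also belong to exons of Tnfsfm13, a read-through gene on the same strand, so that its counts are uncertain.

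Tnfsf10 encodes TRAIL, a ligand of death receptors, and was the only one of the 10 genes called lower. At day 2 the sham libraries read 25.1, 27.6, 21.2, 18.9 and 19.6 CPM and the MI libraries 10.3, 19.9, 13.8, 11.9 and 11.2 CPM. MI replicate 2 reached into the sham range and the other 4 lay below it, and with TMM-scaled CPM all 5 lay below it (at most 18.6 against at least 19.98 CPM). Tnfsf10 was 1.78-fold lower (log2 -0.83 ± 0.16 SE, edgeR adjusted p = 5.64e-04). At day 4 it was 1.40-fold lower (log2 -0.49 ± 0.14 SE, adjusted p = 0.00795), with sham libraries from 22.8 to 30.9 and MI libraries from 15 to 27.2 CPM. At day 7 the MI libraries spread from 13.9 to 32.4 CPM around a sham range of 19.5 to 31.1 CPM (log2 -0.42 ± 0.21 SE, adjusted p = 0.105). Without MI day 7 replicate 5, the highest value, the log2 fold change was -0.60 with an adjusted p of 0.0158.

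Among the receptors, Tnfrsf12a, which encodes Fn14 (ENSMUSG00000023905, minus strand of chromosome 17, 23675445 to 23677468 in GRCm38), had the largest difference in CPM. At day 2 the sham libraries read 133, 50.1, 66.4, 66.5 and 60.6 CPM and the MI libraries 274, 202, 222, 305 and 355 CPM. Sham replicate 1 was the highest sham library, and the groups did not overlap. The means were 272 ± 62 and 75.4 ± 33.1 CPM (SD, n = 5), a 3.40-fold rise (log2 1.76 ± 0.26 SE, edgeR adjusted p = 2.21e-04). At day 4 the sham libraries read 63.0, 43.8, 36.2, 52.5 and 38.9 CPM and the MI libraries 208, 192, 143, 171 and 137 CPM. At day 7 they read 48.7, 41.9, 54.3, 64.1 and 43.2 CPM against 169, 109, 155, 156 and 121 CPM. Every MI library lay above every sham library of its day, and the rises were 3.20-fold (log2 1.68 ± 0.17 SE, adjusted p = 4.00e-06) and 2.46-fold (1.30 ± 0.15 SE, adjusted p = 1.55e-05).

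Tnfrsf1b encodes TNFR2, a receptor found mainly on leukocytes and endothelial cells. At day 2 the sham libraries read 24.1, 26.5, 19.8, 18.8 and 16.0 CPM and the MI libraries 46.3, 44.6, 42.3, 35.7 and 38.9 CPM. At day 7 the values were 16.9, 30.9, 15.6, 17.3 and 17.6 CPM in sham and 66.4, 72.1, 114, 72.5 and 52.5 CPM in MI libraries. The groups were apart at each day, also with the 2 highest sham libraries, replicate 3 of day 4 (33.7 CPM) and replicate 2 of day 7 (30.9 CPM), which both held lung transcripts. Tnfrsf1b rose 1.85-fold at day 2 (log2 0.89 ± 0.12 SE, adjusted p = 2.41e-05), 2.73-fold at day 4 (1.45 ± 0.13 SE, 5.26e-07) and 3.37-fold at day 7 (1.75 ± 0.22 SE, 2.68e-05).

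Tnfrsf1a encodes TNFR1, the death domain receptor made by most cell types. Its sham libraries ranged from 60.9 to 102 CPM at day 2, from 60.6 to 87.7 CPM at day 4 and from 54.5 to 82.1 CPM at day 7. The MI libraries ranged from 104 to 122, from 109 to 143 and from 107 to 144 CPM. The groups did not overlap at any day, although sham day 2 replicate 2 (102 CPM) came close, and with TMM-scaled CPM the highest sham library of day 2 (102.2 CPM) passed the lowest MI library (102.1 CPM). The rises were small, 1.36-fold, 1.56-fold and 1.68-fold (log2 0.45 ± 0.11, 0.64 ± 0.10 and 0.75 ± 0.11 SE), with adjusted p of 0.00314, 1.02e-04 and 7.58e-05. None of them passed a test against a change of at least 1.5-fold, where the adjusted p were 1, 0.476 and 0.105.

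Tnfrsf11a encodes RANK, the receptor for RANKL that drives osteoclast formation and is also found on dendritic cells and macrophages. Its sham libraries read 2.65 to 4.41, 3.33 to 5.37 and 4.15 to 5.05 CPM at days 2, 4 and 7. The MI libraries read 7.41, 9.51, 6.90, 6.04 and 4.56 CPM at day 2, 19.2, 11.2, 14.9, 15.9 and 16.8 CPM at day 4, and 12.6, 10.995, 15.7, 9.25 and 8.74 CPM at day 7. The lowest MI library at day 2, replicate 5, was just above the highest sham library (4.41 CPM). Tnfrsf11a rose 1.98-fold, 2.99-fold and 2.14-fold (log2 0.99 ± 0.19, 1.58 ± 0.17 and 1.10 ± 0.18 SE), with edgeR adjusted p of 6.37e-04, 2.54e-06 and 1.58e-04.

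Tnfrsf11b encodes osteoprotegerin, a soluble decoy that binds RANKL and TRAIL. At day 2 the sham libraries read 0.711, 0.152, 0.683, 0.309 and 0.176 CPM, 2 to 8 counts each, and the MI libraries 1.54, 1.71, 1.38, 1.21 and 2.05 CPM. At day 4 the values were 1.48, 2.69, 4.71, 0.603 and 1.11 CPM in sham and 6.12, 3.67, 5.65, 6.47 and 7.54 CPM in MI libraries. At day 7 they were 1.65, 3.03, 2.31, 0.251 and 2.55 CPM in sham and 14.7, 10.995, 8.66, 18.2 and 6.90 CPM in MI libraries. The groups overlapped only at day 4, where sham replicate 3 (4.71 CPM, a lung library) exceeded MI replicate 2.

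The log2 fold changes of Tnfrsf11b were 1.86 ± 0.37 SE at day 2 (3.63-fold, adjusted p = 7.75e-04), 1.32 ± 0.38 at day 4 (2.503-fold, 0.0106) and 2.40 ± 0.39 at day 7 (5.29-fold, 2.15e-04). At day 7 this was the largest of the 10 fold changes, and 98.6% of the genes tested had a lower log2 fold change. Without the lung libraries the day 4 log2 fold change was 2.26 ± 0.31 SE (adjusted p = 3.27e-05), and the day 7 value was 2.86 ± 0.69 SE (0.0120). The means in MI libraries were 1.58 ± 0.32, 5.89 ± 1.43 and 11.9 ± 4.6 CPM at days 2, 4 and 7 (SD, n = 5).

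Tnfrsf23 encodes a mouse decoy receptor for TRAIL. Its sham libraries read 4.50 to 8.44 CPM at day 2, 3.42 to 5.65 at day 4 and 4.21 to 6.73 at day 7. The MI libraries read 26.2, 17.5, 15.2, 19.0 and 16.3 CPM at day 2, 20.7, 15.5, 17.4, 20.8 and 21.9 CPM at day 4, and 15.2, 13.1, 19.5, 14.2 and 6.47 CPM at day 7. Replicate 5 of MI day 7 fell inside the sham range and the other MI libraries lay above it. The rises were 3.08-fold (log2 1.62 ± 0.18 SE, adjusted p = 5.10e-06), 3.68-fold (1.88 ± 0.15 SE, 2.06e-07) and 2.26-fold (1.18 ± 0.25 SE, 0.00138). At day 7 the call ended without the lung libraries (1.08 ± 0.41 SE, adjusted p = 0.0614), a fit of 4 against 2 libraries. The transcripts of Tnfrsf23 and its neighbour Tnfrsf22 are 91.2% identical over 2172 aligned bases, so that reads may have been split between them. Tnfrsf22 itself rose from 3.37 ± 0.57 to 7.16 ± 1.30 CPM at day 2 (SD, n = 5; 1.99-fold) and 1.55-fold at day 4 (adjusted p = 0.0101), and was not called at day 7 (1.17-fold, adjusted p = 0.315).

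Tnfaip3 encodes A20, a ubiquitin-editing enzyme that NF-kB induces and that limits NF-kB activation; its promoter is the one with capitals above. At day 2 the sham libraries read 7.37, 6.69, 5.04, 7.42 and 6.79 CPM and the MI libraries 8.75, 6.78, 7.11, 7.04 and 6.05 CPM, with a log2 fold change of 0.00 ± 0.14 SE (adjusted p = 0.985). At day 4 they read 7.73, 6.23, 10.2, 6.03 and 6.66 CPM against 9.59, 11.8, 12.1, 10 and 15.8 CPM. Sham replicate 3, a lung library, exceeded 2 of the MI libraries, and Tnfaip3 rose 1.43-fold (log2 0.52 ± 0.16 SE, edgeR adjusted p = 0.0157). At day 7 sham libraries spanned 6.03 to 8.75 CPM and MI libraries read 7.27, 12.3, 15.4, 13.5 and 10.6 CPM, a 1.40-fold rise (0.49 ± 0.18 SE, adjusted p = 0.0335). The day 7 call was not stable: it ended without the lung libraries (0.59, adjusted p = 0.148), without the skeletal muscle library (0.44, 0.0753) and in 7 of the 10 fits that left out 1 library. Those were the fits without sham replicate 1, 3, 4 or 5 or MI replicate 2, 3 or 4.

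**Figure D3:**
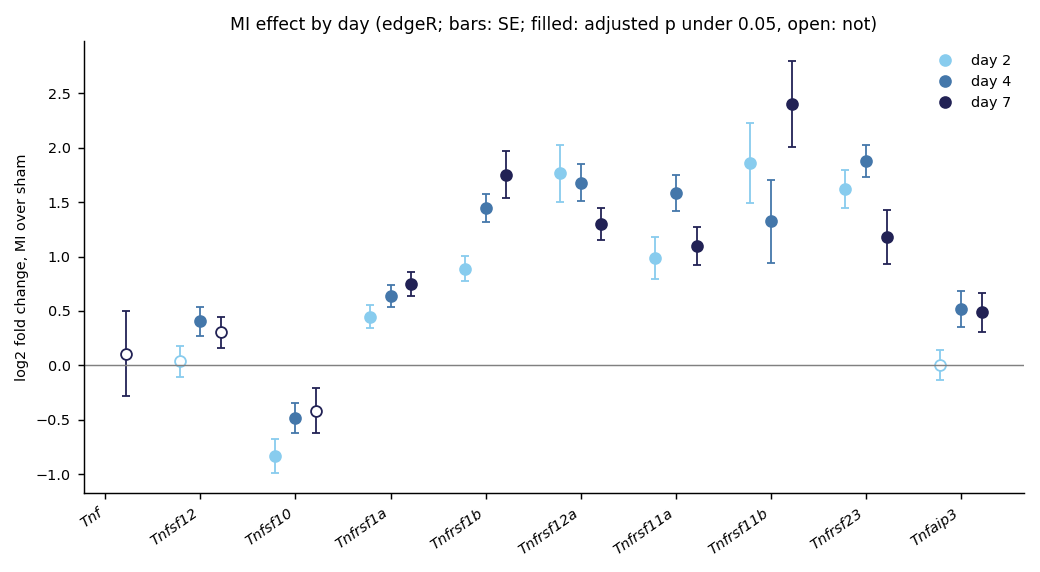
Log2 fold change of MI over sham for the 10 genes at days 2, 4 and 7 (light to dark), with bars for the SE; filled points have an edgeR adjusted p under 0.05, and Tnf passed the filter of these single-day fits only at day 7. The receptors lie above 0 at every day, Tnfsf10 lies below 0, and the values of Tnfrsf1b run from 0.89 to 1.75.

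A change of the MI effect between days was tested in 1 model of all 30 libraries. Only Tnfrsf1b was called: its log2 fold change was larger at day 7 than at day 2 by 0.89 ± 0.25 SE (edgeR adjusted p = 0.0108), where 10.1% of all genes tested were called in that direction, 9.11% in the other and 19.2% in either. Without the lung libraries this difference was 1.04 ± 0.27 SE (adjusted p = 0.0117). From day 2 to day 4, 0 of the 10 genes were called by edgeR or by DESeq2, with 3 at an unadjusted p under 0.05 (Tnfrsf1b, Tnfrsf11a and Tnfaip3) and 2.51% of all genes called higher and 2.29% lower (4.8% in either direction). From day 4 to day 7, 0 were called by either tool, with 2 at an unadjusted p under 0.05 (Tnf and Tnfrsf23) and 0.702% of all genes called higher and 0.315% lower (1.02% in either direction). For Tnf the estimated log2 difference of the effect between days 2 and 7 was -1.49 ± 0.56 SE. It was not called by edgeR (adjusted p = 0.0586) and was called by DESeq2 (0.0488). Without the lung libraries that difference was -0.58 ± 0.76 SE. For Tnfrsf12a the change from day 2 to day 7 was -0.44 ± 0.31 SE (adjusted p = 0.338), and it became -0.75 with an adjusted p of 0.0496 without sham day 2 replicate 1.

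Levels were compared between genes as CPM per kilobase of exon. The length counts every annotated exon base of a gene once (7226 for Tnfaip3, 5985 for Tnfrsf11a and 1932 for Tnfrsf12a). It may exceed the length of the transcripts made, so the order of the genes depends on it. Tnfrsf12a was the highest of the 10 genes in MI libraries, at 141 ± 32, 88.1 ± 15.8 and 73.5 ± 13.2 at days 2, 4 and 7 (SD, n = 5). Tnfrsf1a was next, at 42.8 ± 3.2, 49.3 ± 5.2 and 47.9 ± 5.6. In sham libraries these 2 receptors lay within their spread of each other, at 39.0 ± 17.1 and 29.5 ± 6.1 at day 2, 24.3 ± 5.7 and 28.1 ± 4.5 at day 4, and 26.1 ± 4.7 and 25.01 ± 4.08 at day 7. In MI libraries of day 7, Tnfrsf1b (19.8 ± 6.0), Tnfsf12 (9.76 ± 1.67), Tnfrsf11b (4.22 ± 1.63), Tnfsf10 (4.204 ± 1.468) and Tnfrsf23 (3.46 ± 1.19) followed. The last 3 of these lay within their spread of one another. The level of Tnfsf12 is uncertain, since part of its exon bases are shared with Tnfsfm13. Tnfrsf11a (1.91 ± 0.47), Tnfaip3 (1.63 ± 0.43) and Tnf (0.725 ± 0.247) were lowest, and the first 2 of them lay within their spread of each other.

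**Figure D4:**
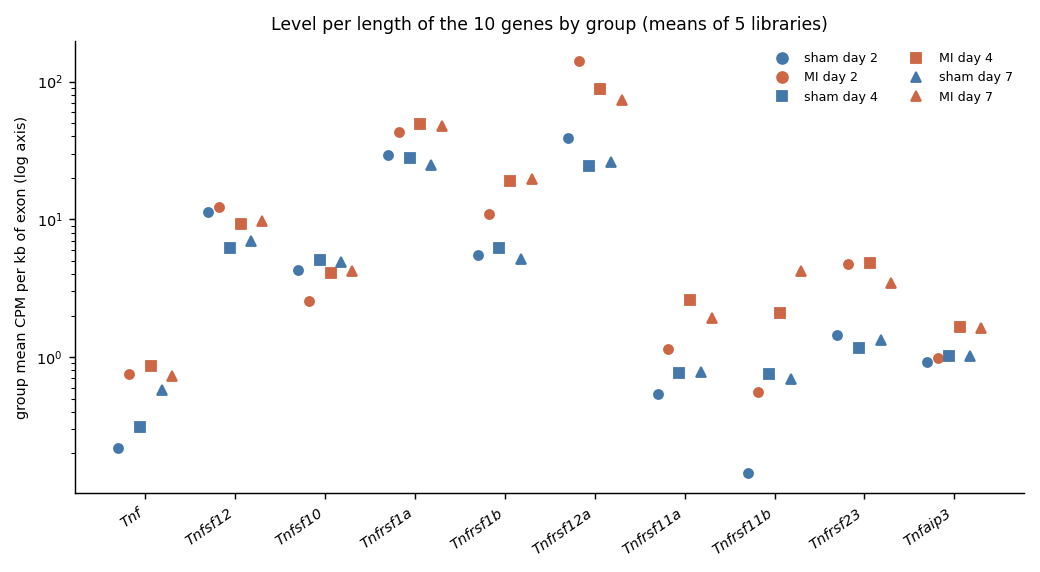
Group mean CPM per kilobase of exon on a log axis for the 10 genes, blue for sham and orange for MI, with circles, squares and triangles for days 2, 4 and 7. Tnfrsf12a in MI libraries is at the top (141 at day 2), and Tnfrsf11b spans from 0.144 in sham day 2 to 4.22 in MI day 7.

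Receptor and ligand of the TWEAK pathway were set against each other within each library. The ratio of Tnfrsf12a to Tnfsf12 per kilobase had a median of 3.52 in sham day 2 (2.02 to 4.88) and 12.7 in MI day 2 (6.38 to 16.2). It was 3.39 and 8.98 at day 4, and 3.49 and 7.83 at day 7, in sham and MI libraries. The ranges of the 2 operations did not overlap at any day. The size of this ratio is uncertain, since 731 of the 1515 exon bases of Tnfsf12 are shared with Tnfsfm13. The ratio of the decoy Tnfrsf11b to RANK (Tnfrsf11a) had medians of 0.236 and 0.425 at day 2, 0.783 and 0.807 at day 4, and 1.09 and 2.12 at day 7. These ranges overlapped at each day. The ratios carry no test, since both rest on values already tested.

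Genes whose pattern was most like a member's were ranked by Pearson correlation of log2(CPM + 1) over the 30 libraries, among the 11785 genes averaging at least 5 CPM. The libraries share operation and day, so these values are a description. For Tnfrsf12a the 5 most alike were Uck2 (r = 0.958), Nppb (0.950), which encodes B-type natriuretic peptide, Nmrk2 (0.947), Enah (0.947) and St6galnac4 (0.947). Within the 15 MI libraries alone their r was 0.841 to 0.941. For Tnfrsf11b they were Nupr1 (0.966), Tyro3 (0.951), Phlda3 (0.948), Clec11a (0.947) and Slc1a3 (0.947), with r of 0.933 to 0.974 within the MI libraries. For Tnf they were Mapk3 (0.802), AI467606 (0.787), Kit (0.780), Sfxn1 (0.777) and Rab27a (0.773), with r of 0.246 to 0.683 within the MI libraries.

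Of 15 other ligands of the superfamily, 5 to 6 had enough counts to be tested at a day. At day 2, 3 rose and 0 fell, at day 4, 2 rose and 0 fell, and at day 7, 2 rose and 0 fell. The share that rose, 60%, 33.3% and 40% of those tested, stood against 24.1%, 27.5% and 28.4% of all genes tested, and at day 4 it was near that background. Tnfsf14 (LIGHT, a ligand of the lymphotoxin beta receptor) rose from 0.335 ± 0.228 to 2.61 ± 1.14 CPM at day 2, 7.14-fold (edgeR adjusted p = 9.13e-05), and 4.47-fold at day 4 (8.44e-04), and was not tested at day 7. Ltb, which encodes lymphotoxin beta, rose 4.195-fold at day 2 (1.06e-04) and 4.09-fold at day 7 (0.00209), and was not called at day 4 (1.53-fold, 0.336). Tnfsf9, the ligand of 4-1BB, rose 2.27-fold at day 2 (0.00229) and 3.39-fold at day 4 (0.00105), and was not called at day 7 (1.84-fold, 0.0873). The list's median log2 fold change was 1.18, 0.58 and 0.88 at days 2, 4 and 7, over the ligands tested only. The summed level of 5 lymphocyte markers had a median of 1.42 CPM in sham and 2.05 CPM in MI libraries at day 2, 2.22 and 3.64 CPM at day 4, and 4.51 and 9.90 CPM at day 7, where MI replicate 4 reached 40.9 CPM. Of these markers 0 were tested at day 2, and only Ms4a1, which encodes the B cell protein CD20, and Cd79a at days 4 and 7. At day 7 Ms4a1 was called higher (3.26-fold, edgeR adjusted p = 0.0476) and Cd79a was not (2.99-fold, 0.0733). At day 4 neither was called, and both pointed lower (0.42-fold for Ms4a1 and 0.68-fold for Cd79a). The lymphocyte sum in sham day 4 was 8.38 and 19.1 CPM in replicates 2 and 3, the lung libraries, and 0.905 to 2.22 CPM in the others. The part of lymphocytes in the values of the ligands was not tested.

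Of 22 other receptors, 14 to 15 were tested. At day 2, 8 rose and 1 fell, at day 4, 11 rose and 2 fell, and at day 7, 9 rose and 1 fell, with medians of 0.58, 0.58 and 0.65. Those that rose made up 57.1%, 73.3% and 60% of the receptors tested (24.1%, 27.5% and 28.4% of all genes), and those that fell 7.14%, 13.3% and 6.67% (22.2%, 25.2% and 26.6% of all genes). Tnfrsf26 rose 4.95-fold, 4.03-fold and 4.78-fold, from 0.652 ± 0.154 to 3.46 ± 1.06 CPM at day 2 (SD, n = 5). Tnfrsf13b, which encodes the BAFF and APRIL receptor TACI, rose 2.36-fold, 2.98-fold and 2.86-fold. Cd40, a co-stimulatory receptor of antigen presenting cells, rose 2.70-fold at day 2, 2.27-fold at day 4 and 2.19-fold at day 7. Tnfrsf19, a receptor also called TROY, fell at all 3 days, from 6.15 ± 1.04 to 2.23 ± 0.57 CPM at day 4 (log2 -1.63 ± 0.20 SE, edgeR adjusted p = 1.06e-05).

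**Figure D5:**
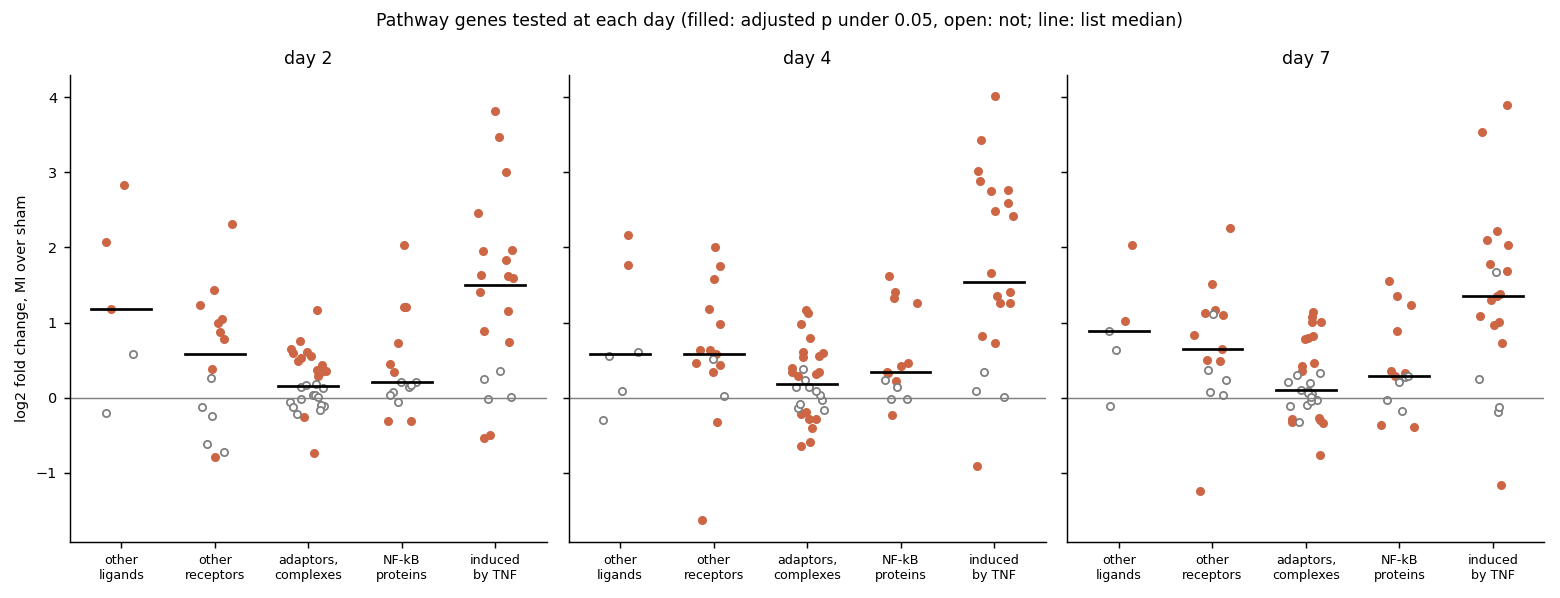
Log2 fold change of MI over sham for the genes tested of 5 pathway lists at days 2, 4 and 7, 1 point per gene (filled for an edgeR adjusted p under 0.05) and a line at the list median. Genes induced by TNF have the highest median at each day (1.499, 1.53 and 1.35), and the adaptors have medians of 0.16, 0.18 and 0.10.

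The 30 genes for adaptors and signalling complexes were all tested, and they moved both ways. At day 2, 13 rose and 2 fell, at day 4, 13 rose and 7 fell, and at day 7, 10 rose and 6 fell. As shares, 43.3%, 43.3% and 33.3% rose (24.1%, 27.5% and 28.4% of all genes) and 6.67%, 23.3% and 20% fell (22.2%, 25.2% and 26.6% of all genes), so that the day 7 shares were near the background. Otulin, a deubiquitinase of linear ubiquitin chains, rose 2.24-fold at day 2 (26.2 ± 2.3 to 62.4 ± 6.3 CPM), 1.47-fold at day 4 and 1.34-fold at day 7. Casp8, the initiator caspase of death receptors, rose 1.56-fold, 2.24-fold and 2.10-fold at days 2, 4 and 7. Traf1, a TRAF adaptor that NF-kB induces, rose 1.68-fold, 2.18-fold and 2.21-fold. Map3k5, which encodes the kinase ASK1, fell at all 3 days, with log2 fold changes of -0.73, -0.65 and -0.76. At day 4 it averaged 51.6 ± 4.0 CPM in sham and 37.2 ± 3.8 CPM with MI (SD, n = 5; edgeR adjusted p = 3.29e-05).

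Of 15 genes for NF-kB proteins, their inhibitors and kinases, 14 to 15 were tested. At day 2, 6 rose and 2 fell, at day 4, 9 rose and 1 fell, and at day 7, 7 rose and 2 fell, with medians of 0.20, 0.34 and 0.29. The shares that rose were 40%, 64.3% and 50% (24.1%, 27.5% and 28.4% of all genes), and those that fell 13.3%, 7.14% and 14.3% (22.2%, 25.2% and 26.6% of all genes). The inducible inhibitor-like protein gene Nfkbiz rose 2.30-fold, 3.07-fold and 2.56-fold, and the kinase gene Ikbke rose 2.32-fold, 2.64-fold and 2.95-fold. Nfkbie rose 1.66-fold, 2.51-fold and 2.36-fold. Ikbkg, the gene of the kinase scaffold NEMO, fell at each day, with log2 fold changes of -0.31, -0.24 and -0.39.

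Among 20 genes known to be induced by TNF, 14 of 20 tested rose and 2 fell at day 2, 16 of 20 rose and 1 fell at day 4, and 14 of 19 rose and 1 fell at day 7. The shares that rose were 70%, 80% and 73.7% (24.1%, 27.5% and 28.4% of all genes), and those that fell 10%, 5% and 5.26% (22.2%, 25.2% and 26.6% of all genes). Many inflammatory signals other than TNF induce these genes too. Mmp9, a matrix protease of neutrophils and macrophages, rose 14.1-fold at day 2 (3.91 ± 1.198 to 59.5 ± 23.0 CPM, SD, n = 5; edgeR adjusted p = 8.00e-07) and 8.13-fold at day 4, and was not called at day 7 (3.17-fold, adjusted p = 0.0683). Il1b rose 8.001-fold, 16.2-fold and 11.6-fold, and Il6 rose 3.54-fold, 10.8-fold and 14.9-fold. Sod2, which encodes the manganese superoxide dismutase of mitochondria and is abundant in heart muscle, fell at each day, from 701 ± 37 to 359 ± 75 CPM at day 7 (log2 -1.16 ± 0.14 SE, adjusted p = 1.70e-05). Tnfaip2 fell at day 2 (log2 -0.54, adjusted p = 2.17e-04) and was not called at day 4 (log2 0.00, 0.982) or day 7 (-0.19, 0.126).

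Markers of cell types were compared in the same way. Of all genes tested, 24.1%, 27.5% and 28.4% were called higher at days 2, 4 and 7, and 22.2%, 25.2% and 26.6% lower. Of 8 macrophage markers, 6, 8 and 8 rose at days 2, 4 and 7 (75%, 100% and 100%). Their summed CPM at day 2 was 489 to 617 in sham libraries and 639 to 1250 with MI. At day 4 the sums were 483 to 818 and 1704 to 2129 CPM, and at day 7 they were 417 to 836 and 1238 to 2615 CPM. Neutrophil markers summed to 2.04 to 17.2 CPM over the sham libraries of all days, and to 186 to 693, 33.5 to 231 and 17.3 to 263 CPM in MI libraries. Of 5 fibroblast markers, 1 rose at day 2 (Postn), 3 at day 4 and 5 at day 7 (20%, 60% and 100%), and the day 2 share was near that of all genes. Dcn, which encodes decorin, fell at days 2 and 4 (log2 -0.77 and -0.49) before it rose at day 7 (0.42). Fibroblast markers summed to 920 to 1415, 3070 to 5787 and 4519 to 8907 CPM in MI libraries and to 819 to 2348 CPM over all sham libraries. Of 5 endothelial markers, 0 rose and 2 fell at day 2 (Kdr and Tie1), 0 rose and 1 fell at day 4 (Kdr), and 1 rose (Vwf) and 1 fell (Kdr) at day 7. The shares of endothelial markers at day 7 (20% higher and 20% lower) were near those of all genes, as was the 20% that fell at day 4. The 5 cardiomyocyte markers fell at days 4 and 7, and 3 of them at day 2. No macrophage, neutrophil or fibroblast marker was at 0 in all libraries of a group. The part of these cell types in the changes of the TNF family genes was not tested.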

How the data were processed

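Per the labels' protocols, mRNA from mouse hearts went into 30 strand-marking libraries that were read from both ends over 150 bases. The authors deposited whole-number counts for each Ensembl gene, and the submitters' processing notes name bcl2fastq 2.20.0, featureCounts and GRCm38. The sources used here do not state the aligner, strand setting or annotation release. Symbols, positions and exon lengths came from GENCODE M21 (GRCm38), which named 97.3% of the 43629 identifiers.

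Groups are those of the labels. Each day's 10 libraries were fitted alone with edgeR 4.0.16 in R 4.3.3 (filterByExpr, minimum count 10; TMM factors; robust quasi-likelihood F test, 2-sided), and changes between days in 1 fit of 30 libraries. A gene was called at an adjusted p under 0.05 (Benjamini-Hochberg, across every gene of the fit). Tnf was also compared by exact permutation tests (scipy 1.17.1). A library with 0 counts of a gene may hold up to 3 counts, 0.213 to 0.383 CPM, for counting error only. Alternatives were median-ratio factors, DESeq2 1.42.0, other filters, a test against 1.5-fold, the replicate number as a block, all 30 libraries in 1 fit, and fits without single libraries or without those holding lung or skeletal muscle transcripts. CPM scaled by TMM factors was added for Tnf and for the overlap of groups after the data had been seen. Near copies were sought with blastn 2.17.0 (at least 90% identity over at least 300 bases, a minimum raised after shorter matches were seen), and figures drawn with matplotlib 3.10.9.

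The 10 genes and the pathway and marker lists were chosen with earlier results of these data known, as were the libraries left out for lung or muscle transcripts. All 10 genes are named whatever their result. Of each pathway list, up to 3 called genes with the largest rise and up to 2 with the largest fall at a day, with a mean of at least 1 CPM, could be named; Tnfrsf22 is named only as a near copy.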

Additional observations from a re-analysis of the deposited data

Results flagged for a closer look

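Of the 60 sets of 5 libraries (10 genes in 6 groups), 3 had 1 library far from the others, where chance gives about 1 in 20. Tnfrsf12a read 133.3 CPM in sham day 2 replicate 1, with the next sham library at 66.5 CPM. Tnfrsf1b read 30.95 CPM in sham day 7 replicate 2, a library with lung transcripts, with the next at 17.6 CPM. Tnfsf12 read 24.87 CPM in MI day 2 replicate 2, with the next at 18.4 CPM. The log2 fold change of Tnfrsf1b differed between days 2 and 7 by 0.8926 in the test of the difference itself (edgeR adjusted p = 0.0108), and it was larger at day 7.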

How the results depend on the processing

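Most results kept their direction and their side of the threshold: 396 of the values of the 10 genes under alternatives other than leaving out 1 library, against 15 that lost and 1 that gained a call and 7 that changed sign. For the pathway genes that could be named, 462 values stayed the same and 32 lost a call. When 1 library was left out, 596 stayed the same and 22 lost a call. The calls of Fas at day 4 (7 of 10 fits), Rel at day 2 (5 of 10) and Tnfsf13 at day 7 (5 of 8) were lost most often. With a test against 1.5-fold, 4 of the 10 genes (7 before) were called at day 2 and 4 (9 before) at day 4, and 1208, 2146 and 2733 of all genes at days 2, 4 and 7 (6723, 7597 and 7976 before). For the change from day 2 to day 4 (746 of all genes), DESeq2 called 1217 and no filter 475. For day 4 to day 7 (158 genes), DESeq2 called 419, no filter 84, the fit without lung libraries 18 and that without the muscle library 95. DESeq2 called 2 of the 10 genes for day 2 to day 7, with Tnf at -1.56, and of all 15537 genes tested it called 1535 higher and 1929 lower. The causes of these moves were not tested. The fits without the lung libraries or the muscle library hold fewer libraries, and the test against 1.5-fold is stricter.

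The signs that changed were these. Tnfaip3 at day 2 was -0.0009 with median-ratio factors, -0.0018 with DESeq2 and -0.0148 with all 30 libraries. Tnf at day 7 was -0.0033 without the muscle library. Without the lung libraries, the change from day 2 to day 4 was 0.0082 for Tnf and 0.40 ± 0.73 SE for Tnfrsf11b (-0.52 ± 0.65 SE with all libraries), and from day 4 to day 7 it was 0.0405 for Tnfaip3. Leaving out each library in turn, the log2 fold change at day 2 ran from -0.0866 to 0.1256 for Tnfsf12 and from -0.0787 to 0.0531 for Tnfaip3, and at day 7 from -0.0805 to 0.33 for Tnf. The change from day 2 to day 4 ran from -0.39 to 0.0454 for Tnfrsf12a. From day 4 to day 7 it ran from -0.15 to 0.0045 for Tnfsf12, from -0.13 to 0.12 for Tnfaip3 and from -0.0834 to 0.22 for Tnfsf10. From day 2 to day 7 it ran from -0.0267 to 0.25 for Tnfrsf11a. In the same fits the genes called ran from 416 to 1236 for day 2 to day 4 and from 70 to 294 for day 4 to day 7. For day 2 to day 7, 1 to 2 of the 10 genes were called, and 2394 to 3509 of all genes.

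Between libraries with the same replicate number, correlations of their deviations ran from -0.215 to 0.237, and 6 of 15 exceeded 0.1. Whether the numbers pair the samples was not tested, and these values are a description. In 4 of the 15 pairs a library correlated best with its own number. With the replicate number as a block, 7, 8 and 6 of the 10 genes were called at days 2, 4 and 7, and 6971, 7350 and 7312 of all genes. For the changes between days the block gave 0, 0 and 1 of the 10 genes and 656, 137 and 2714 of all genes. The calls of Tnfsf12 at day 4 (log2 0.40 with and without it, adjusted p = 0.0523) and Tnfaip3 at day 7 (log2 0.46 against 0.49, 0.0628) were not made under the block. Depth limits Tnf and Tnfrsf11b most, with as few as 1 and 2 counts in a library.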

Other observations

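Within the MI libraries of day 7, replicate 5 had the lowest value of the group for Tnfrsf1a (107 CPM), Tnfrsf1b (52.5), Tnfrsf11a (8.74), Tnfrsf11b (6.90), Tnfrsf23 (6.47) and Tnfsf12 (11), and the highest for Tnfsf10 (32.4). The same library had the lowest sums of macrophage (1238 CPM), neutrophil (17.3 CPM) and fibroblast (4519 CPM) markers of that group. For Tnfrsf12a it read 121 CPM, where replicate 2 was lowest at 109 CPM. Without this library Tnfsf12 was called higher at day 7 (log2 0.39, edgeR adjusted p = 0.0254).

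Tnfsf12 was higher in sham libraries of day 2 (13.0 to 21.4 CPM) than in those of day 4 (7.14 to 11.5 CPM) or day 7 (8.79 to 12.2 CPM). Day and sequencing run cannot be told apart there, and the difference was not tested.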
